A study of Mus musculus with 4 samples.

Results

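Collagens are the triple-helical proteins of the extracellular matrix, and each chain is the product of its own gene. The 44 rows of the count matrix whose symbol names a collagen alpha chain were examined, out of 32285 genes, in a Visium data set of the mouse olfactory bulb. They fall into 11 fibrillar collagens, 8 basement membrane collagens and 25 others, and the 3 classes were kept apart throughout. Of the 44, 40 were counted at least 20 times in all and are described below. Col17a1 with 23 UMIs and Col6a5 with 24 lay just inside that limit. Col6a6 with 17, Col4a3 with 13, Col19a1 with 11 and Col10a1 with 3 lay outside it, and nothing is read from their values.

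Fibrillar collagens such as types I and III assemble into the fibres that give connective tissue its strength, and in the brain they are made mainly by fibroblasts of the meninges and around larger vessels. Type IV chains form the sheet-like network of basement membranes around vessels and under the pia, and collagens XV and XVIII, the multiplexins, are attached to such membranes. The remaining collagens include those that decorate fibrils (the FACIT group), the beaded filaments of type VI, short-chain networks and chains anchored in the cell membrane. The olfactory bulb is covered by leptomeninges and receives the axons of olfactory sensory neurons, which are wrapped by ensheathing glia in its outermost layer.

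The study set the olfactory bulb of 1 control mouse beside that of 1 mutant mouse with a degenerated bulb, both examined at 5 months. In the mutant, vascular endothelial growth factor was blocked at E13.5, a day of embryonic life, by a transgenic soluble VEGFR1, which binds the factor and keeps it from its receptors, under a tetracycline-regulated camk2a-tTa driver that is limited to the brain per the labels. The labels repeat this protocol for all samples and give the genotype of the other mouse only as control, and the sources used here do not say whether it carried the transgene or the driver. Frozen coronal sections of 10 µm were laid on 2 capture areas per mouse (2 sections and 1 section for the control, 2 and 2 for the mutant), and each spot collected the polyadenylated RNA from a small area holding up to several cells.

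The counts come in a single matrix in which spots carry a library number from 1 to 4, and these numbers match no label. The libraries are therefore given by number, the mutant is compared with the control nowhere, and the values that follow belong to libraries and not to a mouse of known genotype. The libraries kept 1662, 715, 1296 and 943 spots with between 5223890 and 13304973 unique molecular identifiers (UMIs, each one captured molecule) per library. Of 2796 distinct barcode sequences, 1460 occurred in over 1 library, a reuse that says nothing of shared tissue because the barcodes are printed alike on every capture area. Markers of periglomerular, mitral and granule neurons were present in all libraries, with no listed marker at 0. The summed level of 4 forebrain excitatory neuron markers was 248, 307, 1549 and 1617 UMIs per 1000000 in libraries 1 to 4, of which Nrgn alone gave 112, 151, 1182 and 1239. Levels are UMIs per 1000000 UMIs of the library or region (CPM), and 95% intervals, given in brackets, cover counting error only. There are no replicates, and libraries are not treated as such.

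The sequence upstream of 4 members is shown because these are the genes the results turn on: Col3a1 as a fibrillar chain with a wide spread between libraries, Col15a1 as a basement membrane collagen that separated 2 collagen-rich regions, Col24a1 as a fibrillar chain with the opposite order of libraries, and Col25a1 as a transmembrane chain with a place of its own. They were chosen after their values were seen. The 250 bases before the annotated start are from RefSeq on GRCm38.p6, all on the plus strand, and none overlaps an annotated exon. Capitals mark matches to the CCAAT box, to the TATA box, searched as TATAAA, or to the GC box, searched as GGGCGG, each on either strand.
Col3a1, chr1:45311288-45311537: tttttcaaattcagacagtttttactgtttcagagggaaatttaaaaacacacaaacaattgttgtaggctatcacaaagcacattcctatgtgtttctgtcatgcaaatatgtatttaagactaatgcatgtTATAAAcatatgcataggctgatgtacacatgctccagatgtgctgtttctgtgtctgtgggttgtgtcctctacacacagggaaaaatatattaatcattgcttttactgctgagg
Col15a1, chr4:47207762-47208011: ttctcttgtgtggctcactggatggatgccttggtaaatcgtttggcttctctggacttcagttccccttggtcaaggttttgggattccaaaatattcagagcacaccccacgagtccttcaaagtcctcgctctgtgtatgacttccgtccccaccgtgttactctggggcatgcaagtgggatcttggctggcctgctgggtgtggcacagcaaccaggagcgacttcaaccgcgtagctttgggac
Col24a1, chr3:145292222-145292471: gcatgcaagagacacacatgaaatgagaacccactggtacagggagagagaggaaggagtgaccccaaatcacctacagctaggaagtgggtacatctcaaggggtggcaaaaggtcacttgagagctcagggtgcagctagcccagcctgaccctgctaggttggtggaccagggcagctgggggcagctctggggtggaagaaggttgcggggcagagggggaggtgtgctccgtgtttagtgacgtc
Col25a1, chr3:130180595-130180844: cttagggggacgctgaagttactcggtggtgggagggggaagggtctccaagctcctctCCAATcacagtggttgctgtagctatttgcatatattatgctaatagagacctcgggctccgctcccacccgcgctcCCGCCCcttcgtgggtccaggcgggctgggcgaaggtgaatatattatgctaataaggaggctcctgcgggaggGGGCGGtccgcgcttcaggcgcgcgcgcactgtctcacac
The Col3a1 window held TATAAA from 117 to 112 bases before the start. The Col25a1 window held CCAAT from 191 to 187 bases before it and 2 matches to GGGCGG, one of them on the opposite strand. No searched motif was found in the Col15a1 or Col24a1 window, which says only that these letters are not there. Of the 35 collagens with a window in the table, 13 held CCAAT, 5 TATAAA and 21 GGGCGG, against 33.8%, 12.4% and 32.7% of all 32851 windows of the same length. A collagen counted if any of its windows held the motif, while the background counts single windows, so the shares are not strictly alike. A match is a string of letters and not a shown binding site. The annotated starts of Col4a1 and Col4a2, the chains of the common type IV network, lie 21 bases apart on opposite strands of chromosome 8.

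Collagens made up 0.0313%, 0.0351%, 0.0936% and 0.0779% of the UMIs of libraries 1 to 4, and 25145 UMIs in all. Fibrillar collagens stood at 90.9 CPM [85.9 to 96.2], 98.0 [89.7 to 106.9], 367 [357 to 378] and 312 [301 to 324] in libraries 1 to 4. The intervals of libraries 3 and 4 lay above those of libraries 1 and 2, and the highest was 4.04-fold [3.79 to 4.31] over the lowest. Basement membrane collagens had the same order with a smaller span, at 73.9, 86.9, 163 and 148 CPM, or 2.21-fold [2.05 to 2.39]. The other collagens lay between them, at 148, 166, 405 and 319 CPM, or 2.74-fold [2.60 to 2.88]. The fibrillar share of all collagen UMIs ran 29.1% [27.7 to 30.5], 27.9% [25.9 to 30.1], 39.3% [38.4 to 40.2] and 40.1% [39.0 to 41.2] over libraries 1 to 4. In a spot, more cells of a collagen-making type and more RNA per cell cannot be told apart, and this holds for every level given here.

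The ratio between a gene's highest and lowest library was called when it passed 2-fold in a gene that had 200 UMIs or more over all libraries and at least 3 per library. Of all 12072 genes tested, 10.9% were called, and the median ratio was 1.27. Of 25 collagens tested, 15 were called, and their median ratio was 3.46. The called collagens were 8 of 10 fibrillar, 2 of 4 basement membrane and 5 of 11 other members. The highest library was library 3 for 13 of the 15, library 4 for Col11a1 and library 2 for Col24a1. Over all genes, 1.67% were called with library 1 highest, 1.23% with library 2, 4.66% with library 3 and 3.3% with library 4. Some members reached 200 UMIs only through the libraries in which they were high, so these counts describe the members that could be tested and not all 44.

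**Figure D1:**
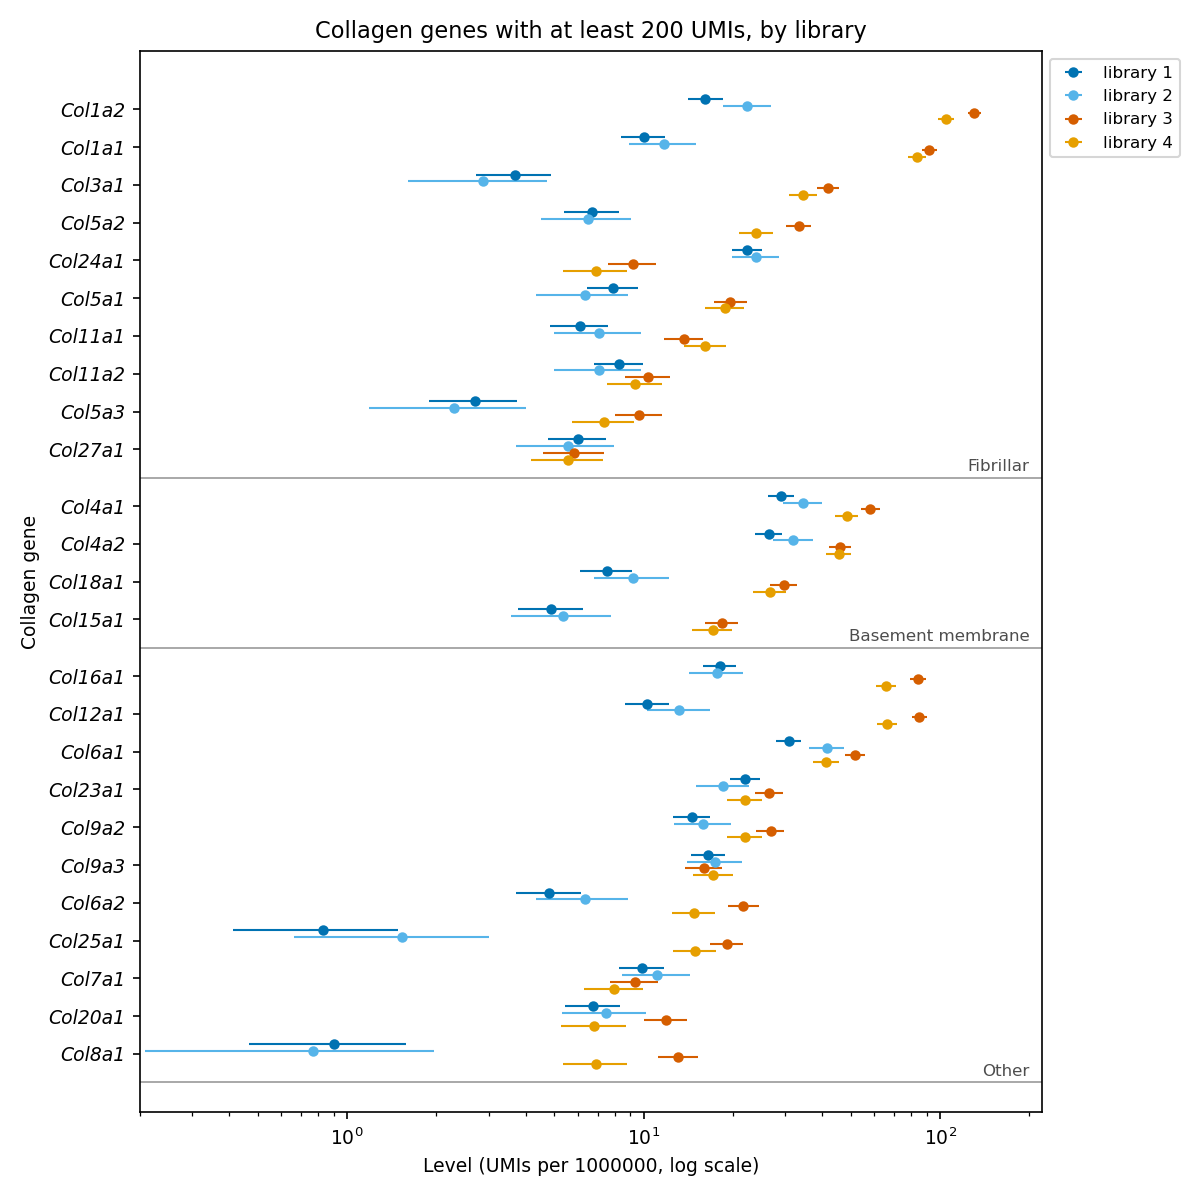
Level of each collagen gene with at least 200 UMIs in libraries 1 to 4, in UMIs per 1000000 on a log axis, with 95% counting intervals as bars; the genes are grouped as fibrillar, basement membrane and other. Col1a2 and Col1a1 lay farthest to the right in libraries 3 and 4, Col24a1 had its low values there, and Col27a1 and Col9a3 had overlapping intervals in all libraries.

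Among fibrillar members the spread between libraries lay mainly in the chains that make the bulk of connective tissue fibres. Col1a1, the alpha-1 chain of type I collagen, was at 10.0 CPM [8.37 to 11.8], 11.7 [8.93 to 14.9998], 91.8 [86.6 to 97.3] and 83.4 [77.7 to 89.4] in the 4 libraries in order. Col1a2, its partner chain, was at 16.2, 22.4, 130.4 and 104.7 CPM. Col3a1, which forms fibres with type I in soft tissues, was at 3.68, 2.87, 42.0 and 34.5 CPM. In these 3 genes libraries 3 and 4 did not overlap libraries 1 and 2, and the ratios of highest to lowest were 9.19 [7.67 to 11.1], 8.07 [6.999 to 9.35] and 14.6 [8.78 to 26.3]. The share of all genes with libraries apart in this way was not counted, here or for the members below. Col2a1, the chain of cartilage fibres, had 58 UMIs in all and overlapping intervals, from 1.13 to 2.30 CPM. Summed over these 4 major chains, the level was 31.0, 39.2, 266 and 224 CPM in libraries 1 to 4.

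The minor fibrillar chains, of which those of types V and XI join the major ones and limit fibre width, spread less as a group, at 60.0, 58.8, 102 and 88.1 CPM. Col5a2 was at 6.69, 6.51, 33.4 and 24.0 CPM, a ratio of 5.14 [3.62 to 7.52]. Col5a1 was at 7.89, 6.32, 19.6 and 18.8 CPM, and Col5a3 at 2.71, 2.30, 9.65 and 7.34. These 3 chains of type V had libraries 3 and 4 above libraries 1 and 2. Col11a1 was at 6.09, 7.08, 13.6 and 16.2 CPM. Col11a2 kept within 7.08 to 10.4 CPM and Col27a1 within 5.55 to 6.01, and the intervals of all libraries overlapped in both. Col24a1, a fibrillar chain known from developing bone, had the reverse order. It stood at 22.3 CPM [19.9 to 25.01], 23.9 [19.9 to 28.5], 9.18 [7.58 to 11.0] and 6.92 [5.35 to 8.81], so libraries 1 and 2 lay above libraries 3 and 4, with a ratio of 3.46 [2.55 to 4.73]. The low span of the minor chains as a sum thus held members with opposite orders.

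Of the basement membrane collagens, Col4a1 was at 29.1 CPM [26.3 to 32.1], 34.5 [29.6 to 39.9], 58.2 [54.0 to 62.5] and 48.4 [44.0 to 53.0]. Its ratio of 1.9996 [1.77 to 2.27] lay just under the 2-fold limit. Col4a2 was at 26.4, 32.0, 46.0 and 45.5 CPM, or 1.74-fold [1.52 to 1.99]. Col18a1, the source of the fragment endostatin, was at 7.52, 9.19, 29.7 and 26.6 CPM, or 3.95-fold [3.16 to 4.98]. Col15a1 was at 4.89, 5.36, 18.4 and 17.1 CPM, or 3.76-fold [2.84 to 5.03]. The intervals of these multiplexin ratios lay above those of Col4a1 and Col4a2. Of the rarer type IV chains, Col4a5 was at 2.86, 2.49, 6.54 and 5.35 CPM and Col4a6 at 1.80, 2.11, 3.51 and 3.57. Col4a4 had 37 UMIs in all, with overlapping intervals.

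Among the other collagens, the FACIT chains Col16a1 and Col12a1 were near the type I chains in their order of libraries. Col12a1 was at 10.3, 13.2, 85.1 and 66.2 CPM, a ratio of 8.27 [6.91 to 9.95]. Col16a1 was at 18.1, 17.6, 84.3 and 65.9 CPM, a ratio of 4.79 [3.87 to 5.99]. In both genes libraries 3 and 4 did not overlap libraries 1 and 2. Col14a1, another FACIT chain, had 108 UMIs and was at 1.43, 0.766, 3.99 and 3.67 CPM. Col22a1 had 58 UMIs, at 0.451, 0.383, 2.47 and 1.99 CPM. Col20a1 reached 11.9 CPM in library 3 and lay between 6.76 and 7.47 in the others. Of type IX, Col9a2 was at 14.6, 15.9, 26.8 and 21.9 CPM, Col9a3 stayed between 16.0 and 17.4 CPM with overlapping intervals, and Col9a1 had 101 UMIs at 0.957 to 3.27 CPM.

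The type VI chains, which assemble in equal parts into beaded filaments, differed from each other. Col6a1 was at 30.9 CPM [28.0 to 34.0], 41.5 [36.2 to 47.5], 51.8 [47.9 to 55.9] and 41.2 [37.2 to 45.5], a ratio of 1.68 [1.48 to 1.90] in which library 2 overlapped library 4. Col6a2 was at 4.81, 6.32, 21.7 and 14.8 CPM, a ratio of 4.51 [3.42 to 6.02]. Col6a3 was at 1.73, 3.06, 4.95 and 4.51 CPM. Col6a4 had 36 UMIs in all. Col6a5 had 0, 0, 10 and 14 UMIs, so library 4 was at least 2.56-fold higher than library 2 when that library is set at its floor of 3 UMIs.

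The short-chain collagens of type VIII, which are made by vessel walls and corneal endothelium, were low in libraries 1 and 2. Col8a1 was at 0.902, 0.766, 13.1 and 6.92 CPM, a ratio of 17.1 [6.55 to 63.5]. Col8a2 was at 1.80, 3.06, 8.14 and 4.09 CPM. Of the membrane-anchored collagens, Col25a1 was at 0.827, 1.53, 19.1 and 14.9 CPM, a ratio of 23.1 [12.7 to 46.8]. Col13a1 was at 1.43, 2.30, 5.43 and 6.08 CPM. Col23a1 lay between 18.6 and 26.5 CPM, and Col17a1 had 23 UMIs. Col25a1 encodes a neuronal membrane collagen that occurs in amyloid plaques, and Col13a1 one found at cell adhesions and nerve-muscle contacts. Col7a1, the collagen of anchoring fibrils in skin, lay between 7.97 and 11.1 CPM with overlapping intervals. Col26a1 was at 1.73, 2.30, 3.83 and 3.46 CPM. Col28a1, a collagen of peripheral nerve, had 72 UMIs at 0.526, 0.383, 3.19 and 2.41 CPM.

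Chains that assemble into a single molecule did not keep 1 UMI ratio across libraries in every pair. Capture differs between genes, so such a ratio is compared only with itself in another library and is no protein stoichiometry. Col1a1 over Col1a2 was 0.619 [0.495 to 0.771], 0.521 [0.376 to 0.716], 0.704 [0.652 to 0.760] and 0.797 [0.725 to 0.875], with the intervals of libraries 2 and 4 apart. Col4a1 over Col4a2 was 1.10, 1.08, 1.27 and 1.06, and all intervals overlapped. Col6a1 over Col6a2 was 6.42 [4.93 to 8.49], 6.58 [4.54 to 9.80], 2.39 [2.07 to 2.76] and 2.79 [2.29 to 3.40]. The last pair of values lay below the former pair without overlap. Col5a1 over Col5a2 was 1.18, 0.971, 0.587 and 0.782, and Col9a2 over Col9a3 was 0.882, 0.912, 1.68 and 1.27.

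Genes that act on collagen were taken from 5 lists, against the same background of 10.9%. Of 19 tested genes for chain modification, folding, trimming and cross-linking, 6 were called, all with library 3 highest, and the median ratio was 1.88. Serpinh1, the chaperone HSP47 of collagen folding, was at 24.0, 23.4, 80.6 and 68.1 CPM. Adamts2, which trims the amino end of procollagens, was at 2.63, 2.87, 14.6 and 9.02 CPM, and the cross-linking oxidase Loxl1 at 14.1, 10.7, 32.6 and 25.7. The lysyl hydroxylase and glycosyltransferase Plod3 ran the other way, at 96.3, 110.8, 63.1 and 55.9 CPM, and its ratio of 1.98 was not called. Sparc, a matrix protein that binds collagen, was at 265, 275, 499 and 429 CPM, and P4hb, a subunit of prolyl hydroxylase, at 93.9, 93.0, 123 and 112.

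Of 7 tested genes for collagen breakdown and its control, 4 were called, with a median ratio of 3.10. Timp1, an inhibitor of matrix metalloproteinases, was at 1.65, 1.53, 49.5 and 24.96 CPM, a ratio of 32.3 [16.3 to 75.2]. The gelatinase Mmp2 was at 2.25, 2.49, 12.7 and 10.6 CPM, and Mrc2, a receptor that takes up collagen fragments, at 9.85, 11.9, 33.8 and 24.5. Timp2, Timp3 and Timp4 were not called, with ratios of 1.16, 1.54 and 1.38. Mmp12, a macrophage elastase, had 0, 0, 145 and 143 UMIs and so could not be tested by this rule.

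Of 6 tested collagen receptors, 1 was called. This was the receptor kinase Ddr2, at 6.46, 8.81, 13.6 and 10.6 CPM. Ddr1, Itgb1 and Adgrg1 had ratios of 1.36, 1.91 and 1.58, and Adgrg1 was highest in library 1. Of 12 tested partners in basement membranes, 7 were called, with a median ratio of 2.06. For 4 of them library 3 was highest, for 2 library 4, and for the laminin chain Lama3 library 2, at 6.61, 8.42, 5.82 and 4.20 CPM, a gene named after its values were seen. Hspg2, the proteoglycan perlecan, was at 7.89, 7.27, 28.2 and 24.7 CPM, and the laminin chain Lama4 at 7.29, 10.7, 24.7 and 21.9. Lama1, a laminin chain of the pial surface, was at 2.33, 5.36, 5.19 and 7.97 CPM. Lamb2 and Lamc1 had ratios of 2.11 and 2.22, and Agrn 1.47. Of 9 tested proteins that coat or bind fibrils, 9 were called, with a median ratio of 3.12. Fn1, fibronectin, was at 53.7, 73.7, 236 and 151 CPM. Dcn, Bgn and Lum, small leucine-rich proteoglycans on fibrils, had ratios of 2.46, 2.85 and 4.24, and Postn 4.47.

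Markers of cells that make or surround collagen also differed between libraries, and their counts stand beside 10.9% of all genes called. Of 14 leptomeningeal and fibroblast markers, 9 were called, all with library 3 highest, and their sum was 3332, 4643, 8444 and 6176 CPM in libraries 1 to 4, with none at 0. Ptgds, an abundant prostaglandin synthase, made up between 90.2% and 92.4% of that sum, and the other 13 markers summed to 253, 353, 824 and 597 CPM. Of 10 endothelial markers, 0 were called, and their sum was 431, 409, 359 and 349 CPM. The members of this sum went both ways, with Ly6c1 at 127, 117, 76.2 and 75.4 CPM and Cldn5 at 73.4, 63.2, 90.8 and 92.2. Of 8 tested mural cell markers, 4 were called, and the sum of the list was 265, 265, 237 and 236 CPM. The contractile genes Acta2, Tagln and Myh11 were called with library 3 highest, at ratios of 2.73, 3.77 and 2.18, and Higd1b with library 1 highest, at 3.85. Of 5 phagocyte markers, 5 were called, and their sum was 203, 196, 1113 and 892 CPM. Leptomeningeal and phagocyte markers thus had their high values in the libraries in which collagens were high, while the endothelial sum did not. This order was not particular to them. Red blood cell markers summed to 864, 647, 1473 and 1303 CPM, and forebrain neuron markers were also higher there. Ensheathing glia markers summed to 1746, 1753, 2252 and 2126 CPM, of which Apod alone gave 713, 797, 1530 and 1388. Fabp7 of the same list ran the other way, at 643, 548, 291 and 329 CPM, so that sum does not stand for the whole list. The sums of sensory axon, periglomerular, mitral and tufted, granule cell and neuroblast markers were lower in libraries 3 and 4. Not every member followed its sum. Among neuroblast markers, Dlx2 was at 59.8, 62.0, 37.9 and 31.4 CPM but Sox11 at 10.3, 12.6, 23.1 and 27.7. Among granule cell markers, Gad1 was at 1345, 1398, 712 and 608 CPM but Pcp4 at 822, 892, 829 and 877. The part of any of these cell types in the collagen levels was not tested.

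Spots of all libraries were clustered together into 9 regions, on variable genes other than the collagens and the 5 lists. No correction for differences between libraries was made. A region is called by the gene with the highest fold in it, a name that stands for no cell type. A region was compared with the rest of a library only where it held at least 30 spots of that library. Only the Adamts19 region reached 30 spots in every library, at 428, 259, 225 and 133. The Mmp12 region had 225 and 172 spots in libraries 3 and 4, and none in libraries 1 and 2. The Fmod region had 132 and 75 spots in libraries 3 and 4, and 1 and 3 in libraries 1 and 2. The Bpifb9b region had 219 and 79 spots in libraries 1 and 2, and 10 and 19 in libraries 3 and 4. With this clustering, the regions rich in collagen were thus not the same ones in the different libraries. With 1000 variable genes, the region highest in fibrillar collagens, led by Ces1a, held at least 30 spots in 3 libraries. Whether the split of regions between libraries came from the tissue or from the clustering was not tested.

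Collagen UMIs were concentrated in the Mmp12, Fmod and Bpifb9b regions. The Mmp12 region held 18.1% of the UMIs of library 3 but 43.5% of its fibrillar, 49.98% of its basement membrane and 39.8% of its other collagen UMIs. In library 4 it held 17.1% of the UMIs and 46.9%, 53.1% and 41.3% of the 3 classes. Fibrillar collagens stood there at 885 CPM [846 to 924] and 858 [813 to 904] in libraries 3 and 4, basement membrane collagens at 452 and 459, and other collagens at 892 and 773. In the Fmod region the same classes stood at 1053 and 926, at 254 and 183, and at 868 and 612 CPM. In the Bpifb9b region of libraries 1 and 2 they stood at 292 and 346, at 176 and 190.3, and at 364 and 455 CPM. The lowest fibrillar levels were those of the Klhl30 region, at 45.0 and 43.2 CPM in libraries 1 and 2.

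**Figure D2:**
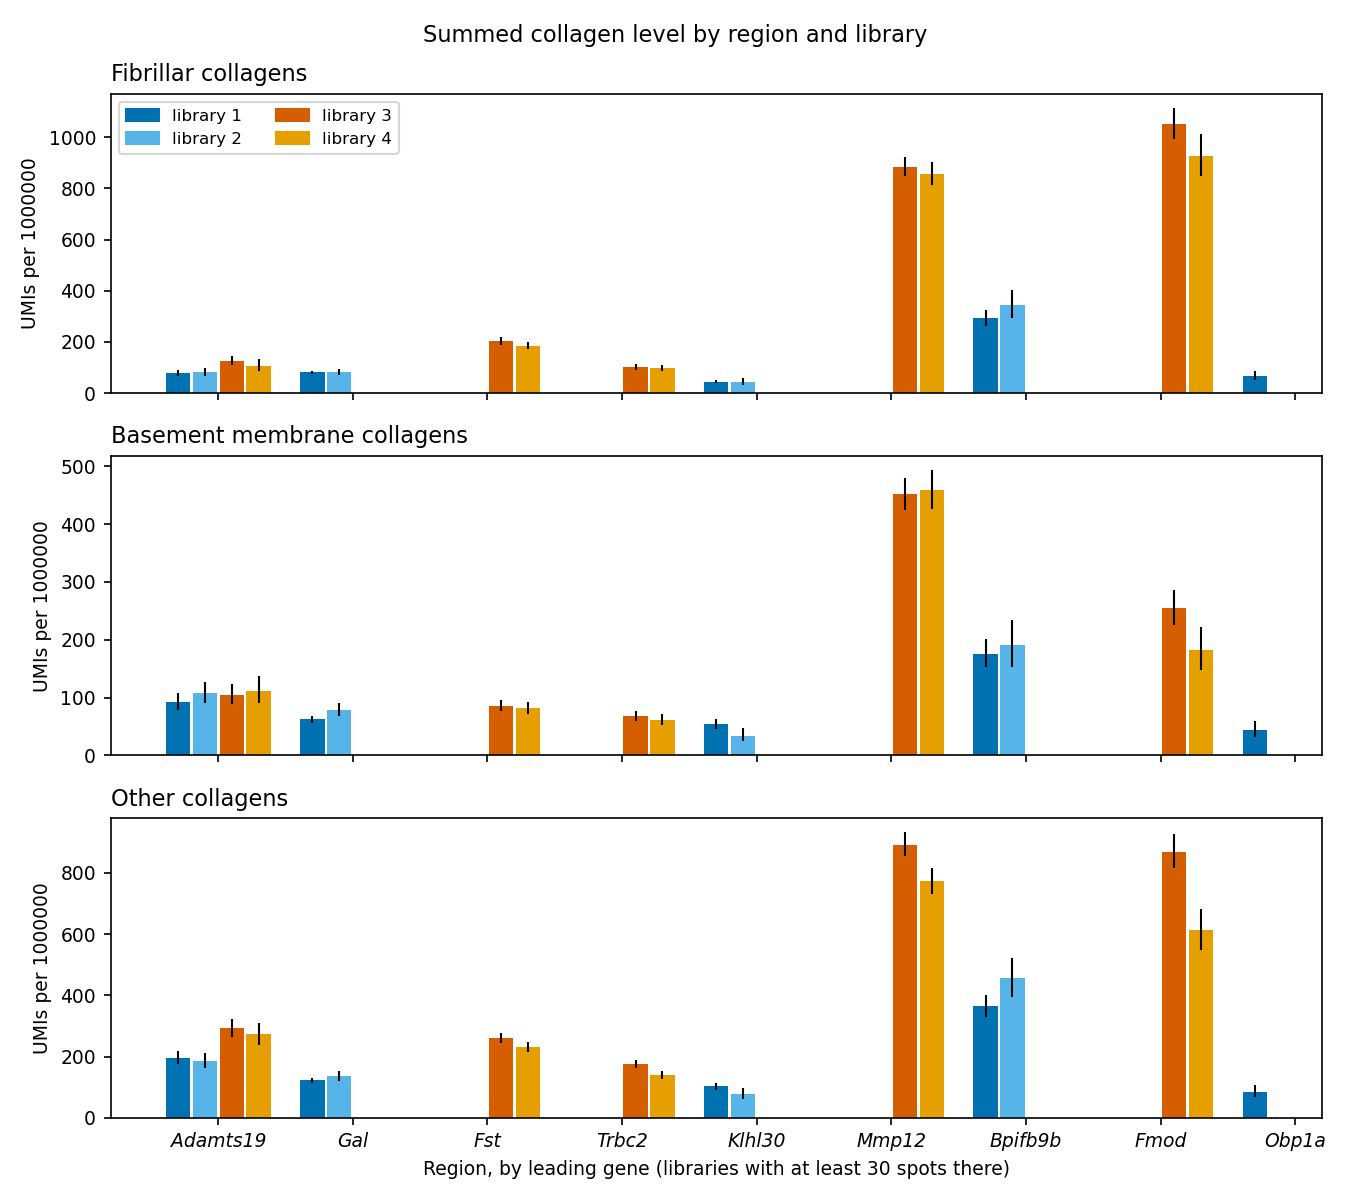
Summed level of fibrillar, basement membrane and other collagens, in UMIs per 1000000, in each region and library with at least 30 spots; bars are levels and lines 95% counting intervals. Basement membrane collagens were highest in the Mmp12 region of libraries 3 and 4, at 452 and 459, while fibrillar collagens in the Fmod region stood at 1053 and 926.

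Set against the rest of their library, many collagens were over 2-fold in these regions, and the share of all tested genes over 2-fold is given beside each count. In the Mmp12 region this held for 23 of 30 tested collagens in library 3, where 10.6% of all genes passed, and for 20 of 27 in library 4, where 10.1% passed. In the Bpifb9b region it held for 13 of 21 collagens in library 1, against 9.57% of all genes, and for 6 of 12 in library 2, against 6.54%. In the Fmod region it held for 15 of 30 in library 3, against 7.66%, and for 8 of 27 in library 4, against 5.73%. In the Fst region 0 of 30 and 0 of 27 passed in libraries 3 and 4, against 1.3% and 1.29% of all genes. The Gal region had 1 of 21 in library 1, which was Col5a1, and 0 of 12 in library 2, against 1.45% and 1.62%. None passed in the Klhl30 region, with 0 of 21 and 0 of 12 in the same libraries, against 0.763% and 0.502%, and none in the Obp1a region, with 0 of 21 in library 1, against 0.39%. The members were tested where they had at least 50 UMIs in the library, the region itself included. Some reached that minimum only through the region in which they were high, such as Col8a1 with 46 of its 66 UMIs of library 4 in the Mmp12 region. These counts therefore describe the tested members only.

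**Figure D3:**
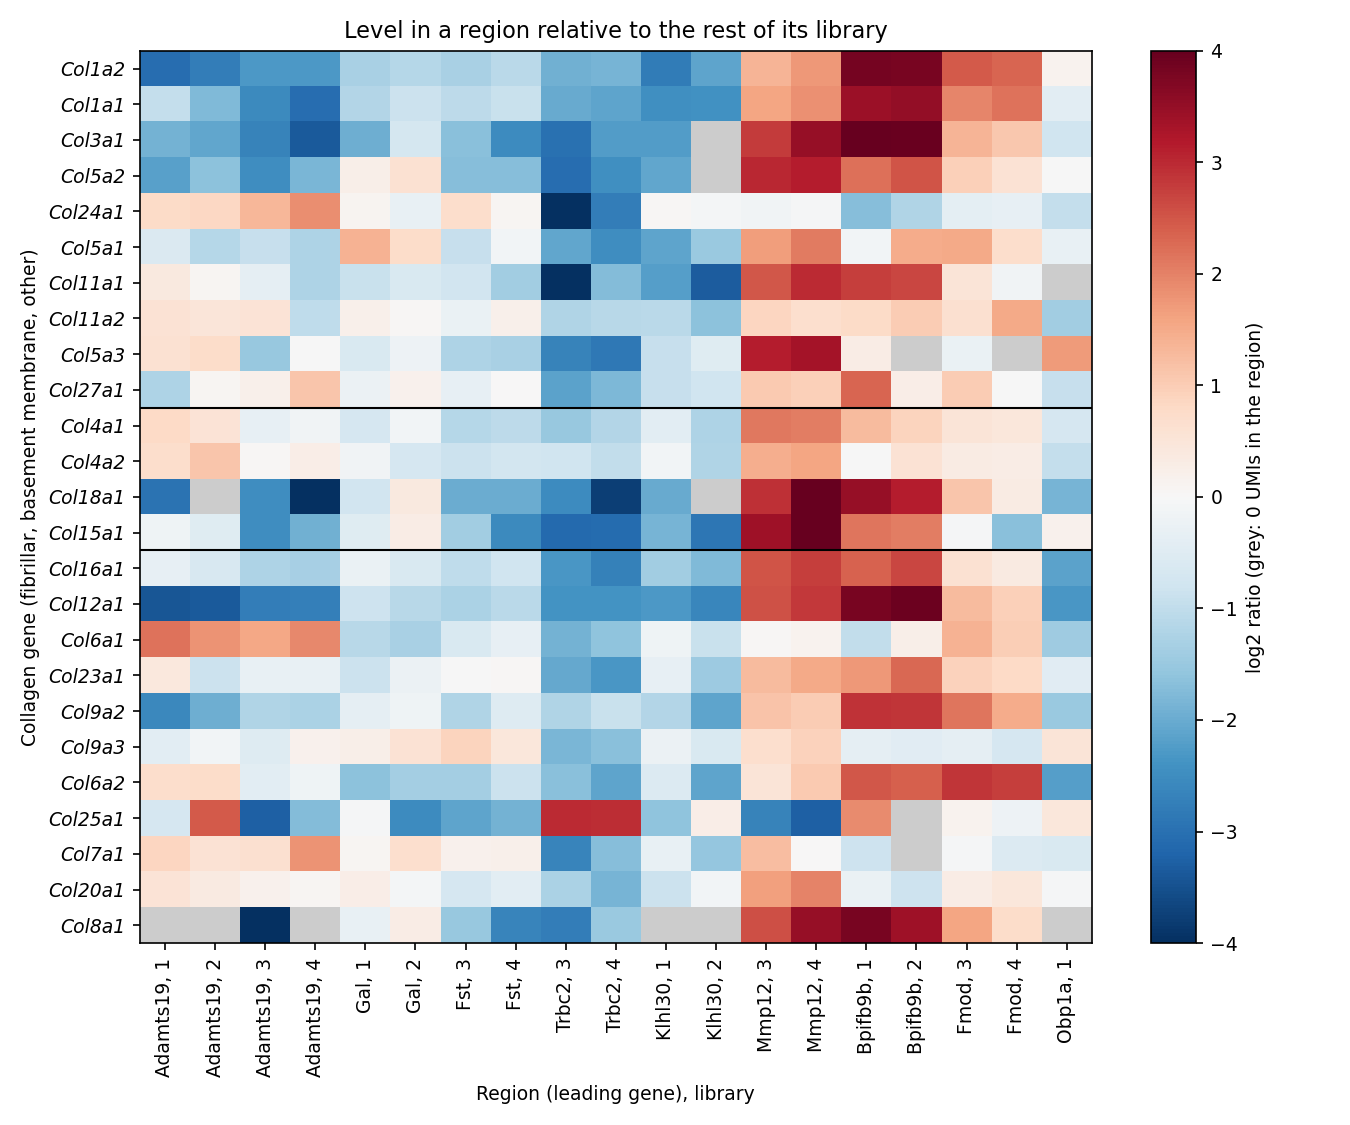
Log2 ratio of the level of each collagen in a region to the rest of the same library, for genes with at least 200 UMIs and regions with at least 30 spots; red is higher, blue is lower, grey marks 0 UMIs in the region, and the colour scale ends at 4 in either direction. Most rows were red in the Mmp12, Bpifb9b and Fmod columns, while Col6a1 and Col24a1 were red in the Adamts19 columns and Col25a1 in the Trbc2 columns.

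The leptomeningeal markers were high in 2 of the 3 collagen-rich regions. Their summed log2 ratio to the rest of the library in the Bpifb9b region was 3.99 in library 1 and 3.87 in library 2, and the Fmod region had 3.81 in library 3 and 3.42 in library 4. With Ptgds left out, a setting added after the values were seen, these were 3.02, 3.12, 3.23 and 2.78. In the Mmp12 region the log2 ratio of the whole list was 0.15 and 0.41 in libraries 3 and 4, or 0.51 and 1.05 without Ptgds, where fibrillar collagens had log2 ratios of 1.80 and 2.10. Phagocyte markers had log2 ratios of 3.34 and 3.68 in the Mmp12 region, and between -0.27 and 0.34 in the other 2. Ensheathing glia markers had log2 ratios of 2.004 and 2.51 in the Mmp12 region and 2.87 and 2.90 in the Bpifb9b region. These marker genes took part in the clustering, and what they contribute to the collagen levels was not tested.

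The Mmp12 and Fmod regions of libraries 3 and 4 differed in which collagens were high. Fibrillar collagens as a sum had a Mmp12 over Fmod ratio of 0.840 [0.782 to 0.904] in library 3 and 0.927 [0.836 to 1.03] in library 4. Basement membrane collagens had a ratio of 1.78 [1.56 to 2.03] and 2.52 [2.04 to 3.14], so their excess in the Mmp12 region did not overlap the fibrillar values in either library. Col15a1 was at 71.1 CPM in the Mmp12 region and 17.98 in the Fmod region of library 3, a ratio of 3.96 [2.48 to 6.65], and at 83.0 and 5.53 CPM in library 4, a ratio of 15.006 [5.03 to 73.7]. Col18a1 had ratios of 1.76 [1.33 to 2.36] and 3.59 [2.21 to 6.19]. Col4a1 had ratios of 1.96 [1.55 to 2.502] and 2.03 [1.41 to 2.99].

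Within the fibrillar class the chains went both ways between these regions. Col5a2 had Mmp12 over Fmod ratios of 1.996 [1.52 to 2.65] and 2.60 [1.61 to 4.44] in libraries 3 and 4. Col3a1 had ratios of 1.49 [1.19 to 1.88] and 2.07 [1.46 to 3.02], and Col11a1 of 2.20 and 3.96. The type I chains were lower in the Mmp12 region, with ratios of 0.721 [0.623 to 0.835] and 0.665 [0.551 to 0.805] for Col1a1 and 0.516 [0.459 to 0.580] and 0.577 [0.490 to 0.681] for Col1a2. For Col3a1 and both type I chains the intervals lay on opposite sides of 1 in both libraries. Of all genes tested, 4.41% and 5.52% were over 2-fold higher in the Mmp12 region of libraries 3 and 4, and 3.43% and 2.61% over 2-fold higher in the Fmod region.

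Other collagens also parted between these regions. Col16a1 was at 259 and 122 CPM in the Mmp12 and Fmod regions of library 3, and at 226 and 83.0 in library 4, with ratios of 2.12 [1.76 to 2.58] and 2.72 [1.99 to 3.79]. Col12a1 had ratios of 1.46 [1.25 to 1.73] and 1.88 [1.45 to 2.49]. Col6a2 was at 28.7 and 102 CPM in library 3 and at 25.8 and 75.6 in library 4, with ratios of 0.283 [0.205 to 0.387] and 0.342 [0.217 to 0.539]. Col13a1 had ratios of 0.309 and 0.270, and Col8a2 of 0.389 and 0.359. Col28a1 had 32 of its 40 UMIs of library 3 and 20 of its 23 of library 4 in the Mmp12 region, which is 80.0% and 87.0%.

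**Figure D4:**
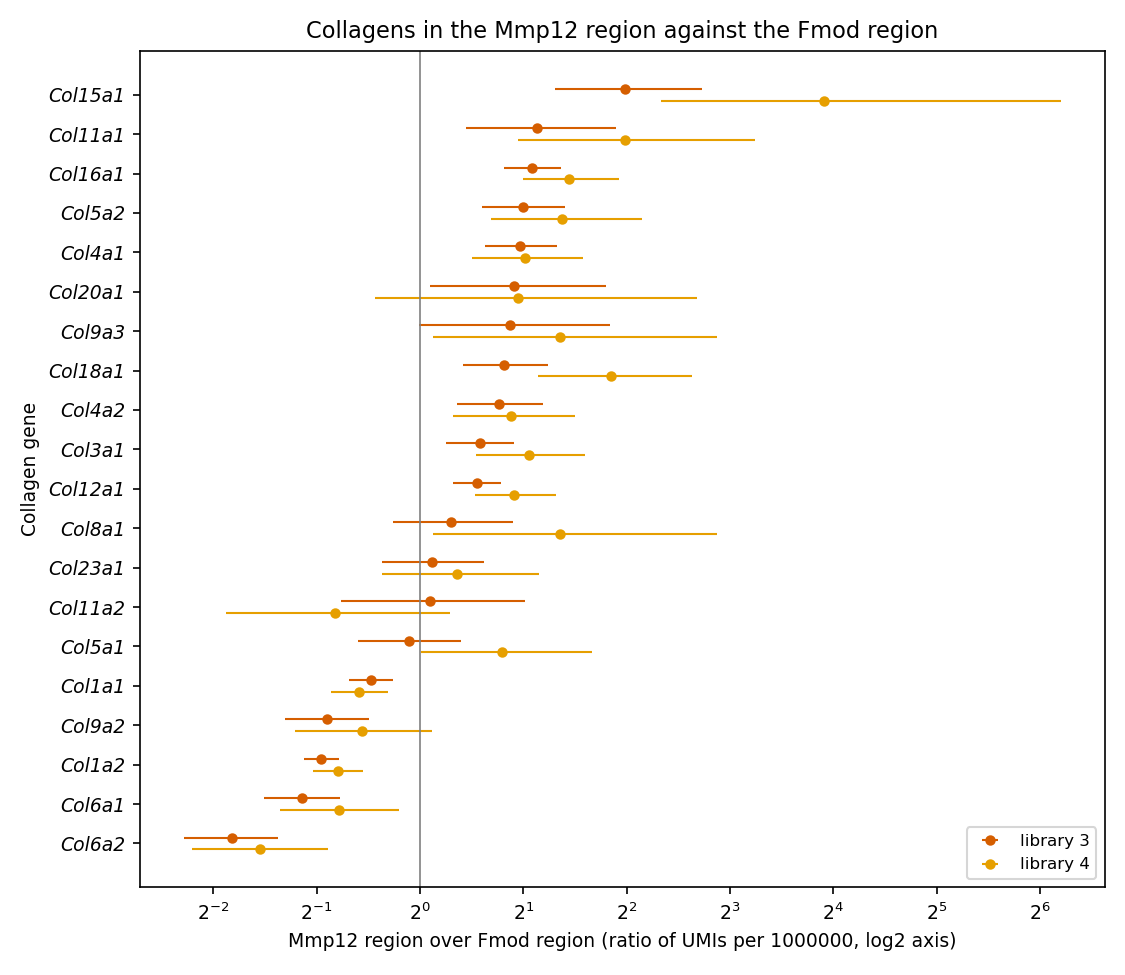
Ratio of the level in the Mmp12 region to that in the Fmod region, on a log2 axis, with 95% counting intervals. Shown are the collagens with at least 200 UMIs in all that had a ratio in both library 3 and library 4. The vertical line marks a ratio of 1. Col15a1, Col16a1, Col5a2, Col4a1, Col18a1 and Col3a1 lay to the right of the line in both libraries, and Col1a1, Col1a2, Col6a1 and Col6a2 to its left.

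In the Adamts19 region, present in every library and shallow with a median of 3660 UMIs per spot, Col6a1 was high and few other collagens were. Col6a1 was at 94.2 CPM [80.7 to 109.5], 91.2 [75.0 to 109.8], 124 [106.4 to 144] and 126 [103.4 to 153] in libraries 1 to 4. Its log2 ratio to the rest of the library was 2.17, 1.79, 1.54 and 1.93, positive in every library. Col6a2, which shares the molecule, had log2 ratios of 0.69, 0.72, -0.42 and -0.17 there, and its highest ratios belonged to the Fmod region, at 2.87 in library 3 and 2.77 in library 4. Col24a1 was at 34.7, 36.2, 19.6 and 20.5 CPM in the Adamts19 region, against 0.565 and 1.37 CPM in the Trbc2 region of libraries 3 and 4. Its log2 ratio to the rest of the library there was 0.77, 0.84, 1.32 and 1.86. Col7a1 was at 16.0, 14.8, 13.8 and 22.9 CPM in the Adamts19 region. Over 2-fold against the rest of the library were 1 of 21 tested collagens in library 1 (Col6a1), 2 of 12 in library 2 (Col6a1 and Col4a2), 2 of 30 in library 3 and 4 of 27 in library 4. The shares of all genes were 5.65%, 5.63%, 7.67% and 8.63%. In library 3 these were Col6a1 and Col24a1, joined in library 4 by Col7a1 and by Col27a1 on 9 UMIs. Only Col6a1 passed in every library. The collagen shares were 4.76%, 16.7%, 6.67% and 14.8%, below those of all genes in libraries 1 and 3 and above them on few members in libraries 2 and 4. As sums against the rest of the library, basement membrane collagens there had ratios of 1.31 [1.10 to 1.54] and 1.34 [1.08 to 1.64] in libraries 1 and 2 and 0.614 and 0.741 in libraries 3 and 4. Fibrillar collagens were below 1 in every library, at 0.829, 0.789, 0.319 and 0.323.

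Col25a1 lay mainly in the Trbc2 region, which had 244 spots in library 3, 213 in library 4 and none in libraries 1 and 2. It stood there at 51.2 CPM [44.0 to 59.2] and 37.8 CPM [31.0 to 45.5] in the respective libraries. The region held 75.7% and 77.5% of the Col25a1 UMIs of these libraries, with 28.2% and 30.6% of all UMIs. It was the 1 collagen of 30 in library 3 and of 27 in library 4 that passed 2-fold there, where 5.62% and 4.88% of all genes did. All 3 collagen classes were low there, with log2 ratios of -2.22 and -2.05 for fibrillar, -1.57 and -1.60 for basement membrane and -1.504 and -1.51 for other collagens. The absence of the Trbc2 region from libraries 1 and 2 moves with the spread of Col25a1 between libraries. Its part in that spread was not tested beyond this.

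Within the Adamts19 region the spread of each class sum between libraries was smaller than over whole libraries, while single members went both ways. Fibrillar collagens were at 77.2, 81.3, 127 and 107 CPM, a ratio of 1.64 [1.31 to 2.06] against 4.04 over all spots. Basement membrane collagens were at 92.6, 107.6, 104.8 and 112 CPM, a ratio of 1.21 [0.928 to 1.57], and all their intervals overlapped. Other collagens were at 196, 187, 293 and 272 CPM, or 1.57-fold [1.33 to 1.86]. Col4a1 stood at 46.3, 45.2, 47.3 and 44.5 CPM, a ratio of 1.06 [0.698 to 1.64]. Col1a2 was at 2.20, 4.11, 29.1 and 22.9 CPM on 4, 5, 40 and 19 UMIs, and Col16a1 at 14.9, 12.3, 38.6 and 27.7, so some members kept libraries 3 and 4 above libraries 1 and 2. Col1a2 had a ratio of 13.2 [4.77 to 50.8] there against 8.07 over all spots, and Col12a1 one of 12.5 [3.02 to 111.0] against 8.27, both on few UMIs. Col11a2 had 3.02 [1.01 to 12.2] against 1.46, and Col23a1 2.44 [1.33 to 4.78] against 1.43, so both passed 2-fold within the region and not over whole libraries. Genes were tested here from 50 UMIs in the region with at least 3 in each library. Some members, such as Col1a2, reached that minimum only through the libraries in which they were high. The count that follows therefore describes the tested members only. Within the region 5 of 12 tested collagens were over 2-fold, against 10.8% of all genes, with a median ratio of 1.83 against 1.37. These were Col1a2, Col11a2, Col6a2, Col16a1 and Col23a1, the last of which was highest in library 1.

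With all spots of the Mmp12, Fmod and Bpifb9b regions left out, a setting chosen after the data were seen, the ratio of highest to lowest library was 2.16 [1.98 to 2.36] for fibrillar, 1.28 [1.15 to 1.41] for basement membrane and 1.81 [1.70 to 1.94] for other collagens. Col1a1 then had a ratio of 7.64 [5.80 to 10.2] and Col12a1 one of 6.22 [4.66 to 8.43]. Col4a1 and Col4a2 had ratios of 1.25 and 1.23. Fewer collagens then reached 200 UMIs, and 7 of 18 tested were called, against 9.07% of all genes, beside 15 of 25 over all spots.

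Spots that held no leptomeningeal marker UMI, Ptgds left aside, also differed between libraries after each spot was thinned to 2000 UMIs. Fibrillar collagens in such spots stood at 71.9 CPM [60.4 to 84.9], 73.4 [55.9 to 94.7], 179 [155 to 204.7] and 167 [140.4 to 197] in libraries 1 to 4, and libraries 3 and 4 did not overlap libraries 1 and 2. Basement membrane collagens stood at 64.1, 83.3, 121 and 96.9 CPM, and there library 2 overlapped libraries 3 and 4. In spots with at least 5 such UMIs, fibrillar collagens stood at 488, 409, 1175 and 1198 CPM. The spots with no marker UMI were 67.2%, 64.2%, 46.4% and 44.7% of the thinned spots. A spot at this depth with no marker UMI may still hold such cells.

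**Figure D5:**
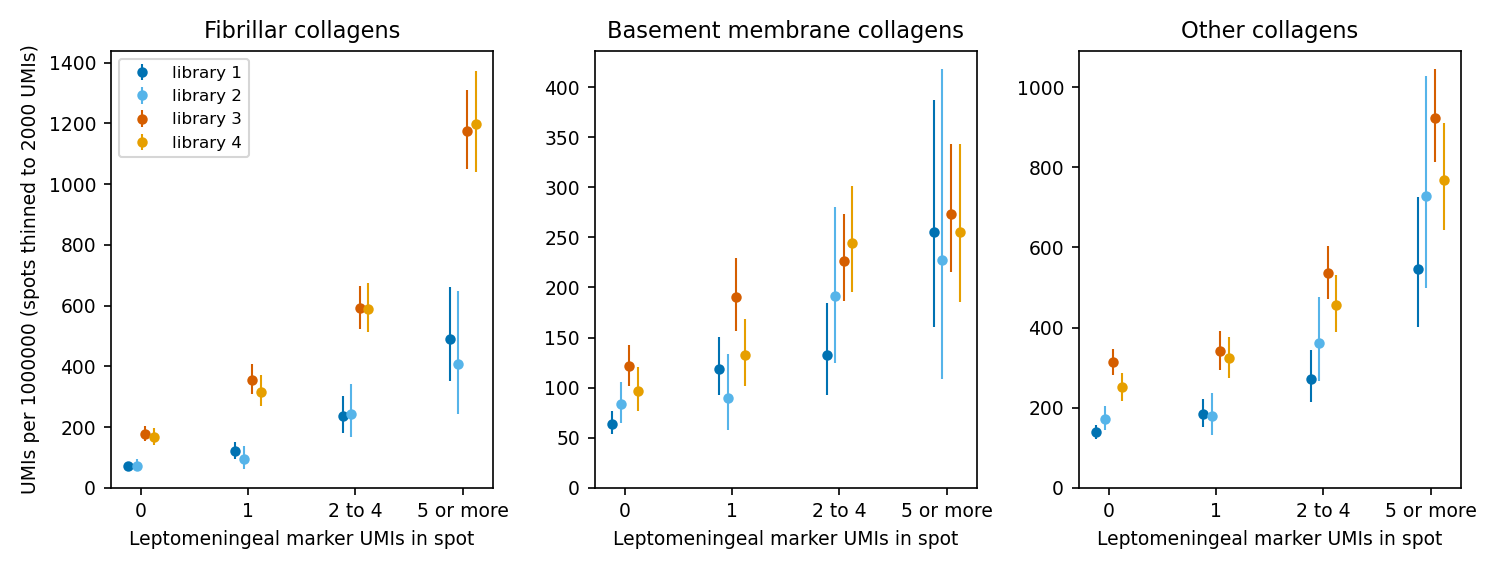
Summed level of each collagen class, in UMIs per 1000000, in spots thinned to 2000 UMIs and split by the number of leptomeningeal marker UMIs they held (Ptgds left out), with 95% counting intervals. Fibrillar collagens were higher in libraries 3 and 4 than in libraries 1 and 2 at each step, from 71.9 to 179 with no marker UMI to between 409 and 1198 with 5 or more.

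A fibrillar UMI was seen in 43.5% [41.1 to 45.9], 42.7% [39.0 to 46.4], 73.8% [71.4 to 76.2] and 73.9% [71.0 to 76.7] of spots in libraries 1 to 4. At 2000 UMIs per spot these shares were 18.2%, 18.1%, 42.5% and 38.9%. A single spot held up to 9, 7, 82 and 37 fibrillar UMIs. Col1a1 was seen in 6.86% and 7.27% of the spots of libraries 1 and 2 and in 38.0% and 39.0% of those of libraries 3 and 4. Across thinned spots, the share of fibrillar UMIs had a Spearman rho with the leptomeningeal marker share of 0.22, 0.18, 0.44 and 0.50, and with that of ensheathing glia of 0.22, 0.17, 0.46 and 0.43. Its rho with red blood cell markers was 0.13, 0.11, 0.42 and 0.41, with phagocyte markers -0.01, -0.08, 0.35 and 0.34, and with the basement membrane share 0.07, 0.08, 0.20 and 0.21. Endothelial markers had 0.10, 0.13, 0.29 and 0.26, nasal mucosa markers 0.12, 0.08, 0.26 and 0.33, and granule cell markers -0.14, -0.06, -0.24 and -0.28. Most thinned spots held no fibrillar UMI, more so in libraries 1 and 2, so rho is not compared between libraries. Spots share library and neighbouring tissue, and these values are descriptions.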

How the data were processed

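Visium libraries of olfactory bulb from 1 control and 1 mutant mouse were deposited as a pooled matrix of counts, whole-number UMIs per gene and spot, which per the file headers the authors made by running Space Ranger, version 1.3.1. The submitters' processing notes name GRCm39 as the build. Annotation and read filters: not given in the sources used here. No coordinates of the counted genes are printed. The barcode suffix gave the library, no label names the suffixes, and the planned ratio of mutant to control was not run.

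Spots with at least 500 UMIs were kept (4616 of 4713). UMIs summed per library or region were scaled to 1000000. Intervals at 95% are exact Poisson for levels, exact conditional binomial for ratios and Clopper-Pearson for shares, and cover counting error only. A sum of 3 UMIs is 0.225 to 0.574 CPM depending on the library. Without replicates there is no test and no p-value. Regions came from log1p counts per 10000, 2000 variable genes, 30 components, 15 neighbours and Leiden clustering at resolution 0.8 (leidenalg 0.10.2, Python 3.11.15, scipy 1.17.1, scikit-learn 1.9.0), without collagens, the 5 lists, mitochondrial, ribosomal protein and haemoglobin genes. A gene was called between regions from 50 UMIs in the library.

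Thinning to 2000 UMIs left out 233, 89, 42 and 20 spots of libraries 1 to 4. The calculations were tested on simulated data. The named genes are all collagens with at least 20 UMIs, the 3 members of each list with the most UMIs, up to 3 more by ratio, and the leading gene of each region. Members, classes and lists were chosen with earlier results of these data known. Upstream sequences are RefSeq windows on GRCm38.p6, and 35 of the 44 collagens matched by symbol. One listed processing gene has no row in the matrix.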

Additional observations from a re-analysis of the deposited data

How the results depend on the processing

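Keeping all spots, keeping spots with at least 2000 UMIs, or leaving mitochondrial and haemoglobin UMIs out of the total moved no class ratio outside its counting interval and no count of called genes by over 1.5 times. Ratios of highest to lowest library, counts and the value of a highest region have no direction to reverse, so only their size was checked. Over all alternatives, 40 checks of class ratios, counts and highest regions moved outside such limits and 78 did not. Leaving out 1 library at a time gave ratios of highest to lowest library from 3.43 to 4.04 for fibrillar, 1.88 to 2.21 for basement membrane and 2.16 to 2.74 for other collagens. The low ends came without library 3 for fibrillar and other collagens and without library 1 for basement membrane collagens. The count of called collagens was 15 of 25 each time, against 9.19% to 9.41% of all genes. Of 6 receptors, 0 or 1 were called (0 without library 1 or without library 3). Of 12 basement membrane partners, 7 were called with all libraries and from 4 to 6 otherwise (4 without library 1). Type IV chains alone had a ratio of 1.88.

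Within the Adamts19 region, which alone had 30 spots in every library, the ratios were 1.64, 1.21 and 1.57 for fibrillar, basement membrane and other collagens. At the same minimum of 200 UMIs, 0 of 3 tested collagens, 1 of 5 processing genes, 0 of 2 breakdown genes, 0 of 2 receptors, 0 of 1 basement membrane partner and 1 of 1 fibril-binding gene were called, against 2.52% of all genes. Without the spots of the Mmp12, Fmod and Bpifb9b regions, a setting added after the data were seen, the ratios were 2.16, 1.28 and 1.81, and 7 of 18 collagens, 3 of 16 processing genes, 1 of 5 breakdown genes, 0 of 5 receptors, 0 of 10 basement membrane partners and 4 of 7 fibril-binding genes were called, against 9.07% of all genes. A minimum of 100 UMIs gave 22 of 33 collagens, 2 of 7 receptors and 6 of 9 breakdown genes, against 14.2% of all genes, and one of 500 gave 10 of 16 collagens, 0 of 3 receptors and 2 of 5 breakdown genes, against 7.85%.

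The highest region of a class was the one with the largest log2 ratio to the rest of its library in the library where that ratio was lowest. Fibrillar collagens had 2.04 (Bpifb9b region), 2.42 in the Mmp12 region at resolution 0.4, and 1.93 and 2.13 in a region led by Ces1a with marker genes out of the clustering and with 1000 variable genes. At the latter setting that region held at least 30 spots in 3 libraries. Leaving out 1 library gave 2.04 to 2.22, with the Mmp12 region on top without library 3. Basement membrane collagens had 2.18 (Mmp12 region), 1.83 at resolution 0.4, 1.75 with marker genes out of the clustering, 1.59 with 1000 variable genes (a region led by Cxcl10), and 2.18 to 2.46 without 1 library. Other collagens had 1.58 (Mmp12 region), 1.24 (Bpifb9b region) with markers out, 1.31 (a region led by Ces1a) with 1000 variable genes, and 1.58 to 1.78 without 1 library (Bpifb9b region, 1.72, without library 1). The cause of these moves was not tested. No paired analysis was possible because the library numbers match no label or replicate number. Capture areas of 1 animal would be repeats of that animal, and rare members with under 200 UMIs have ratios too wide to rank.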
